A study of Mus musculus with 39 samples.

Results

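Cbln4, Islr2 and Hsd17b1 were followed through mouse testis and gubernaculum, as 3 of the 21561 genes with an Ensembl identifier that both deposited count tables share. They had been picked by name because they were strongly lower in testes of mutant mice at postnatal day 8 (P8), so their P8 testis values are given as a description, without a test. The study asked how a cetacean INSL3 hormone acts in a mouse, and sequenced RNA from testis and from the gubernaculum, the ligament that guides the testis in its descent. WT mice were compared with homozygous knock-in mice (INSL3-KI), whose native Insl3 locus carries the INSL3 coding sequence of the minke whale Balaenoptera acutorostrata, and with knockout mice (INSL3-KO) whose allele is not described in the sources used here. All animals were males, and the knock-in was made in C57BL/6J mice by homologous recombination with later Cre removal of the selection cassette. Testes came from WT and INSL3-KI mice at P8, P23 and P40 and from INSL3-KO mice at P8 and P23. Gubernacula came from WT and INSL3-KI mice at P8 and P23 and from INSL3-KO mice at P8. Each of the 13 groups had 3 libraries, labelled as biological replicates, which gave 39 libraries in all.

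Cbln4 encodes a secreted cerebellin with a C1q-like domain. Cerebellins join presynaptic neurexins to postsynaptic receptors in the brain, and Cbln4 is also known as a gene switched on in fetal Sertoli cells downstream of the testis-determining factors SRY and SOX9. Islr2 encodes a membrane protein with immunoglobulin and leucine-rich repeat domains that binds neurotrophin and GDNF receptors and guides axons. Hsd17b1 encodes a hydroxysteroid dehydrogenase that turns oestrone into oestradiol and, in the mouse, also androstenedione into testosterone, and it is expressed in fetal and immature Sertoli cells and in ovarian granulosa cells. Sertoli cells are the nurse cells of the seminiferous tubule, and they stop dividing and mature in the weeks after birth while the first germ cells enter meiosis.

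The libraries held 29861447 to 45260372 counts (median 36944626), of which the shared genes took 94.2% to 97.9%. The 27 libraries of the first table were all the WT and INSL3-KI libraries except WT P23 testis, and the 12 libraries of the second table were all the INSL3-KO libraries and WT P23 testis. In a comparison that crosses the tables, the table and the group cannot be told apart. These were INSL3-KO against WT and against INSL3-KI at P8 in both tissues, both comparisons of INSL3-KI testis at P23, and WT testis at P40 against P23. Insl3, the targeted gene, was counted 2722 to 3524 times in WT P8 testis, 15 to 33 times in INSL3-KI and 613 to 906 times in the libraries labelled INSL3-KO, which goes against that label. INSL3-KO P8 testis below stands for the libraries labelled so. At P23 the counts were 20844 to 25238 in WT, 52 to 84 in INSL3-KI and 0 to 5 in INSL3-KO testis. Bulk RNA cannot tell fewer cells of a type from less RNA per cell, which holds for every level below.

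In the GENCODE M21 annotation of mouse build GRCm38, Cbln4 (ENSMUSG00000067578) lies at chr2:172036233-172043466 on the minus strand with 1 transcript of 3 exons. Hsd17b1 (ENSMUSG00000019301) lies at chr11:101078411-101080527 on the plus strand with 1 transcript of 6 exons, and neither gene overlaps another. Islr2 (ENSMUSG00000051243) lies at chr9:58196297-58204319 on the minus strand with 17 transcripts of 2 to 4 exons. The gene model of its paralog Islr covers 8010 bases of it on the same strand, and a pseudogene, 1600029O15Rik, covers 1423 bases on the other strand, so that its counts are uncertain where the counting could split reads. The promoters of Cbln4 and Islr2 (2 of the 3 members matched a RefSeq entry, build GRCm38.p6, windows of 300 bases around the start) are shown because both genes were high in WT P8 testis and low elsewhere. RefSeq has 3 windows for Islr2, and the one that spans the start of the annotated gene is shown. The Cbln4 promoter is at chr2:172043417-172043716 and the Islr2 promoter at chr9:58204270-58204569, both on the minus strand and written 5′ to 3′, with capitals marking motif letters.
Cbln4: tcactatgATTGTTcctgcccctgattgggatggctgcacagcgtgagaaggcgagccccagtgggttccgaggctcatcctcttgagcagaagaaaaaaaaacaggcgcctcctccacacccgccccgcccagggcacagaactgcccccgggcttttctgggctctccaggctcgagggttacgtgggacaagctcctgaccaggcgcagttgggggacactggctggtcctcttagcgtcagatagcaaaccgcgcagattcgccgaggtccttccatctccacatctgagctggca
Islr2: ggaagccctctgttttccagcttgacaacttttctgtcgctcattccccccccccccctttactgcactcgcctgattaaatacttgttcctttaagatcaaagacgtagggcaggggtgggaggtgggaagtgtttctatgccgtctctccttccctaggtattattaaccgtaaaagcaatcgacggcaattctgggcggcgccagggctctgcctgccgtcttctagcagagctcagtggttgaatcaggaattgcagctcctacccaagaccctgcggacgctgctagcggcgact
Both strands of both windows were searched for the letters of 4 motif families, and the share of all 32851 RefSeq promoter windows of 300 bases that hold the same letters is given beside each. The letters AACAAT, taken for the SOX family to which SRY and SOX9 belong, were in 10.7% of all windows and once in the Cbln4 window, on the other strand from base 9. AAGGTCA, for the NR5A family of the steroidogenic factor, was in 4.72% of all windows and in neither of these. AGATAA, for the GATA factors, was in 11.2% of all windows and in neither of these. TGACGT, the core of the cAMP response element, was in 7.51% of all windows and likewise in neither. A match is a match of letters and not a bound site.

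Cbln4 was a gene of WT P8 testis. Its levels there were 7.53, 14.6 and 11.3 FPKM, against 0.327, 0 and 0.294 FPKM in INSL3-KI and 0.332, 0.258 and 0.385 FPKM in INSL3-KO testis of the same age. All WT libraries were far above all mutant libraries. The deposited counts were 783, 1730 and 1302 in WT, 35, 0 and 33 in INSL3-KI and 42, 30 and 44 in INSL3-KO, where the count of 0 allows up to 3 counts by counting error alone. Group means were 1.85% (INSL3-KI) and 2.91% (INSL3-KO) of the WT mean. The log2 fold change against WT was −5.84 ± 0.94 (SE, n = 3 per group) in INSL3-KI and −5.15 ± 0.31 in INSL3-KO. Ordered from the lowest, these were positions 6 of 15702 and 25 of 15723 genes tested.

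Islr2, the gene for the neurotrophin receptor partner, stood at 51.2, 67.1 and 50.7 FPKM in WT P8 testis. It stood at 4.44, 2.03 and 4.97 FPKM in INSL3-KI and at 3.21, 3.0 and 3.08 FPKM in INSL3-KO P8 testis. WT did not overlap either mutant, and the mutants overlapped each other. The means were 6.76% and 5.49% of the WT mean, with log2 fold changes of −4.00 ± 0.32 in INSL3-KI (position 26 from the lowest) and −4.22 ± 0.14 in INSL3-KO (position 57).

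Hsd17b1, the steroid dehydrogenase gene, was measured at 50.5, 85.9 and 67.0 FPKM in WT, 6.25, 2.05 and 5.30 FPKM in INSL3-KI and 11.1, 10.9 and 9.35 FPKM in INSL3-KO P8 testis. None of the groups overlapped, with WT highest, INSL3-KO next and INSL3-KI lowest. Relative to WT the means were 6.69% in INSL3-KI and 15.4% in INSL3-KO, and the log2 fold changes were −4.01 ± 0.43 (position 25) and −2.77 ± 0.20 (position 179). Between the mutants Hsd17b1 was −1.27 ± 0.37 on the log2 scale in INSL3-KI relative to INSL3-KO, Islr2 0.19 ± 0.28 and Cbln4 −0.72 ± 1.00. Hsd17b1 alone of the 3 members had mutant groups that did not overlap. The share of all genes without such overlap was not counted, so nothing is read from this. By the stricter rule for a call, given below, 3.92% of all genes were called between the mutants in either direction. Of 15728 genes tested there, 7013 had an unadjusted p under 0.05 in edgeR.

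The members' WT values were not overlapped by either mutant for 3 of 3 genes. The share of all genes without such overlap was not counted, and the rule for a call is stricter. A call is an adjusted p under 0.01 in edgeR's quasi-likelihood test with a change of at least 2-fold, and this rule called 3.25% of all genes lower in INSL3-KI, and for INSL3-KO 8.37%. Nothing is read from these counts, because the same values chose the genes. The ranges with 1 library left out in turn describe the same values and are no support for the fall. In INSL3-KI they were −6.30 to −5.28 for Cbln4, −4.18 to −3.73 for Islr2 and −4.31 to −3.67 for Hsd17b1. In INSL3-KO the ranges were −5.35 to −4.91, −4.27 to −4.07 and −2.92 to −2.56. In WT P8 testis Islr2 was 6.80, 4.59 and 4.48 times as high per length as Cbln4 in replicates 1, 2 and 3, and Hsd17b1 was 0.985, 1.28 and 1.32 times as high as Islr2.

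**Figure D1:**
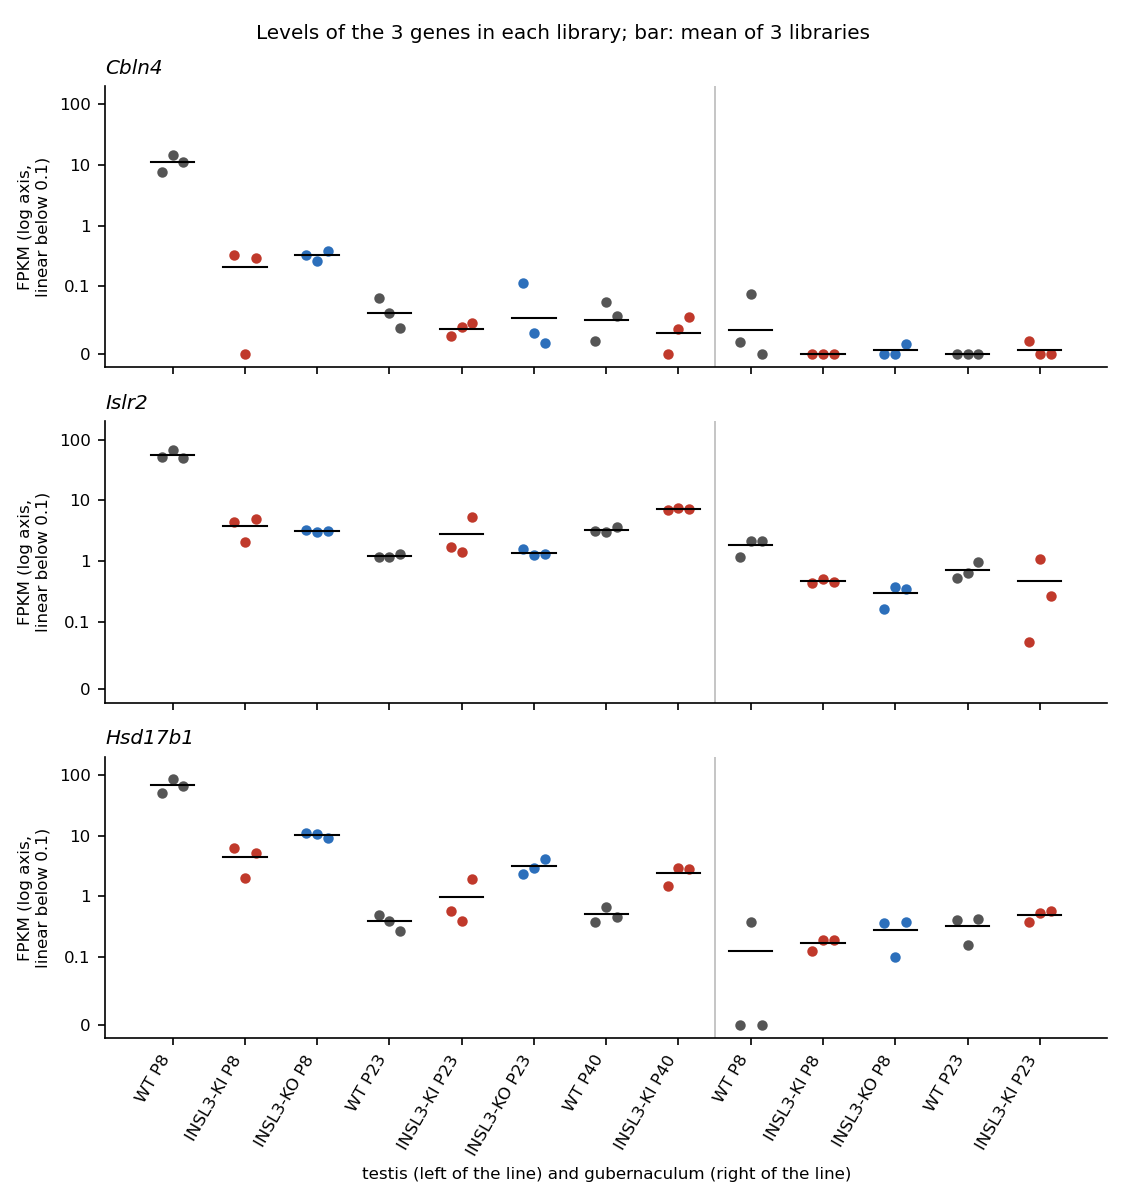
Level of Cbln4, Islr2 and Hsd17b1 in FPKM (log axis, linear below 0.1) in each of the 39 libraries, by group of 3 with a bar at the mean. The WT P8 testis libraries stand above all others for each gene, at 7.53 to 14.6 FPKM for Cbln4, 50.7 to 67.1 FPKM for Islr2 and 50.5 to 85.9 FPKM for Hsd17b1.

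Sertoli markers, counted without the 3 members, were present in all P8 testis libraries and moved in both directions in the mutants. The summed level of the 28 Sertoli genes was 8380 to 10497 CPM (counts relative to the TMM-scaled library size) in WT, 7746 to 9030 in INSL3-KI and 10213 to 10428 in INSL3-KO. In INSL3-KI, 2 of 28 were called lower and 4 higher (median log2 fold change −0.31, against 0.00 for all genes tested), and 3.03% of all genes were called higher. Amh, the hormone of immature Sertoli cells, and Gata4, a gonadal transcription factor, were lower by the edgeR test (−2.15 ± 0.27, adjusted p = 0.00460, and −1.76 ± 0.20, adjusted p = 0.00413). Rhox5, a homeobox gene that Sertoli cells express under androgen, Gata1, a factor of Sertoli cells during the first wave, Cldn11, a tight junction protein, and Defb19 were higher, Rhox5 by 4.01 ± 0.57 (adjusted p = 0.00557). In INSL3-KO, 5 of 28 were lower and 6 higher (median −0.06, all genes −0.02), with 5.44% of all genes called higher. Ptgds, a prostaglandin synthase, fell by 2.25 on the log2 scale there. Amh was at 331, 488 and 386 FPKM in WT, 115, 60.8 and 117 in INSL3-KI and 102, 101 and 98.8 in INSL3-KO P8 testis, with no overlap of WT and mutants. The most abundant Sertoli gene, Clu, stood at 1279 ± 242 FPKM (SD, n = 3) in WT. Scaled to the summed Sertoli list instead of all genes, the fold changes against WT were −5.75 for Cbln4, −3.87 for Islr2 and −3.90 for Hsd17b1 in INSL3-KI and −5.29, −4.34 and −2.90 in INSL3-KO. This scaling moved all genes alike, with the median of all genes at 0.15 in INSL3-KI and −0.17 in INSL3-KO.

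The number of calls of INSL3-KI against WT at P8 depended on which library was left out. With all libraries edgeR called 987 genes, with 931 without WT replicate 1 and 897 without INSL3-KI replicate 2. It called 0 without WT replicate 2, 1 without WT replicate 3, 1 without INSL3-KI replicate 1 and 14 without INSL3-KI replicate 3. In these last fits 5740 to 7228 genes had an unadjusted p under 0.05 in edgeR. DESeq2 on all libraries called 2140. Meiotic genes also moved with the mutant groups. The summed level of 6 spermatocyte genes was 57.7 to 99.3 CPM in WT, 323 to 1841 in INSL3-KI and 431 to 439 in INSL3-KO P8 testis, and 3 of 6 were called higher in INSL3-KI and 4 of 6 in INSL3-KO. Sycp3, of the synaptonemal complex, rose by 3.56 ± 0.47 (edgeR, adjusted p = 0.00475) and 3.60 ± 0.32 (adjusted p = 1.27e-04). INSL3-KI replicate 2 had the highest spermatocyte sum and the lowest level of all 3 members, and without it the INSL3-KI fold changes lay in the ranges given above. The summed spermatid list was at most 0.960 CPM in every P8 testis library, and the part of germ cell content in the members' values was not tested. Endothelial genes also differed, at 192 to 334 CPM in WT, 81.0 to 122 in INSL3-KI and 99.3 to 102 in INSL3-KO, with 1 and 3 of 4 called lower. Neuron genes summed to 46.3 to 71.7 CPM in WT against 129 to 139 (INSL3-KI) and 158 to 162 (INSL3-KO), with no overlap, and 1 of 4 tested was called higher in both, Tubb3, a neuronal tubulin. Adipocyte genes summed to 35.5 to 276 CPM in WT against 11.6 to 50.1 and 9.20 to 11.3, with 0 and 2 of 4 called lower. The Leydig list summed to 1011 to 1169 CPM in WT, 470 to 520 in INSL3-KI and 750 to 782 in INSL3-KO, with 6 and 3 of 12 called lower, Insl3 among them, and 1 higher in each. The part of these cell types was not tested.

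**Figure D2:**
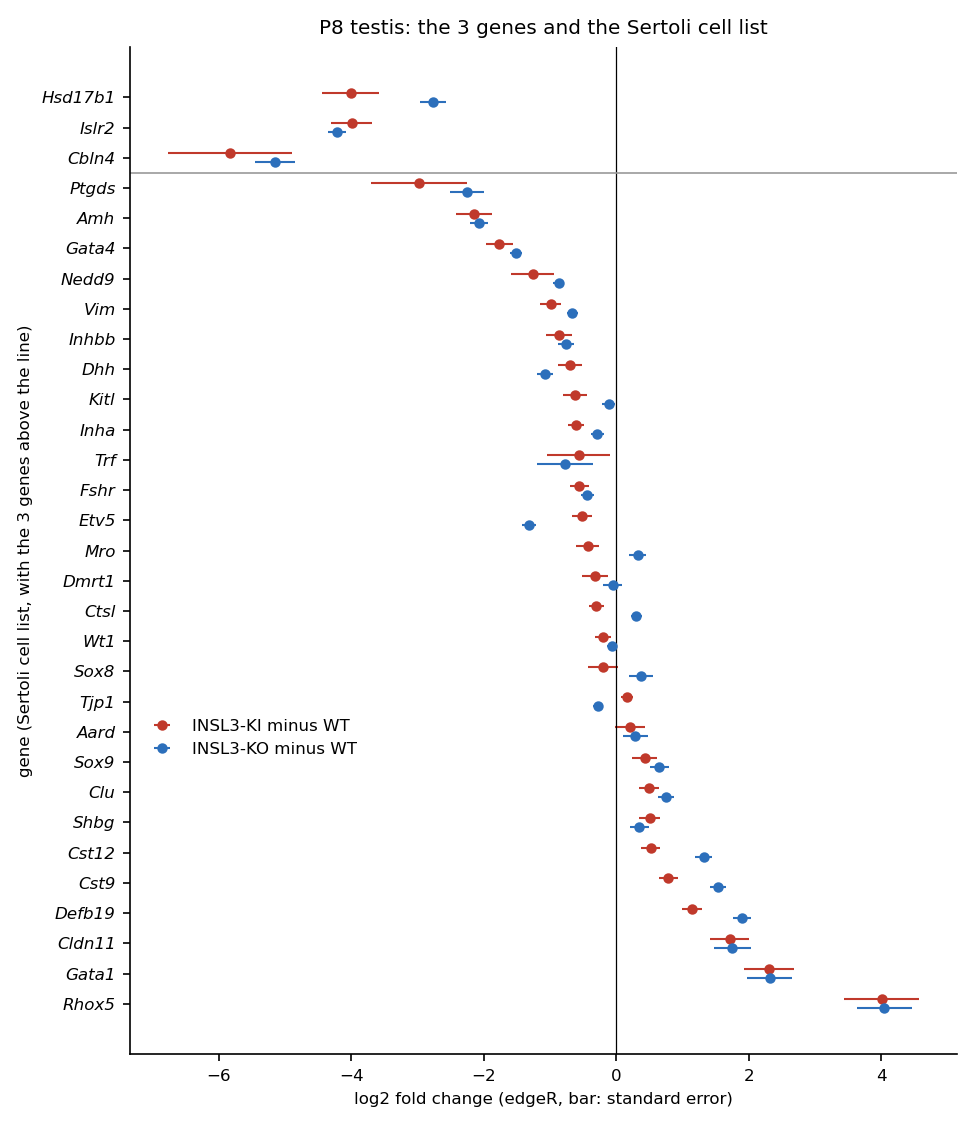
Log2 fold change against WT in P8 testis for the 3 members and the 28 Sertoli genes, in INSL3-KI and INSL3-KO, with bars for the standard error (n = 3 per group). The members lie between −5.84 and −2.77, which follows from how they were chosen. The Sertoli list has medians of −0.31 and −0.06. It runs from −2.97 to 4.01 in INSL3-KI and from −2.25 to 4.05 in INSL3-KO.

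After P8 the members took different courses in WT testis. Cbln4 was nearly absent, with means of 0.0603 FPKM at P23 and 0.0506 at P40, and counts of 0 to 13 in every testis library after P8. Islr2 was at 1.15, 1.16 and 1.29 FPKM at P23 and 3.08, 3.06 and 3.58 at P40, which is 2.14% and 5.75% of its P8 mean. Hsd17b1 was at 0.503, 0.401 and 0.268 FPKM at P23 and 0.382, 0.680 and 0.454 at P40, or 0.576% and 0.746% of its P8 mean. Islr2 rose from P23 to P40 in WT testis (1.28 ± 0.12, edgeR adjusted p = 1.81e-05, no overlap), where 4.64% of all genes were called, and Hsd17b1 gave 0.27 ± 0.40 (adjusted p = 0.619). This comparison crosses the tables, and its Islr2 call was lost in a fit of all testis groups together (edgeR adjusted p = 0.0111). In INSL3-KI testis the P40 against P23 values were 1.19 ± 0.46 for Islr2 (edgeR adjusted p = 0.101) and 1.13 ± 0.57 for Hsd17b1 (adjusted p = 0.149), in a comparison in which edgeR called 0 genes, 7615 had an unadjusted p under 0.05 and DESeq2 called 1145.

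Across the 13 groups, the order of mean FPKM put WT P8 testis first for each gene. For Cbln4 the next was INSL3-KO P8 testis (0.325 ± 0.0641), which overlapped INSL3-KI P8 testis (0.207 ± 0.180), and all groups after these overlapped their neighbours. For Islr2 the order ran WT P8 testis (56.4 ± 9.32), INSL3-KI P40 (7.17 ± 0.241), INSL3-KI P8 (3.81 ± 1.57), WT P40 (3.24 ± 0.296), INSL3-KO P8 (3.09 ± 0.109), INSL3-KI P23 (2.83 ± 2.21), WT P8 gubernaculum (1.81 ± 0.564), INSL3-KO P23 testis (1.38 ± 0.178) and WT P23 testis (1.20 ± 0.0775). The 4 other gubernaculum groups came last. The first 3 of these groups were separated from each other, WT P23 testis lay above WT P23 gubernaculum and INSL3-KI above INSL3-KO P8 gubernaculum, and all other neighbours overlapped. For Hsd17b1 WT P8 (67.8 ± 17.7), INSL3-KO P8 (10.4 ± 0.954) and INSL3-KI P8 testis (4.53 ± 2.20) were each separated from the next of the 3, and INSL3-KO P23 (3.14 ± 0.933), INSL3-KI P40 (2.44 ± 0.837), INSL3-KI P23 (0.970 ± 0.831), WT P40 (0.506 ± 0.155) and WT P23 testis (0.391 ± 0.118) followed among overlapping groups. All 5 gubernaculum groups had mean Hsd17b1 levels of 0.129 to 0.496 FPKM.

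Hsd17b1 was higher in INSL3-KO than in WT testis at P23, the opposite sign to P8, but not when scaled to the Sertoli list. It was measured at 2.34, 2.92 and 4.17 FPKM in INSL3-KO against 0.503, 0.401 and 0.268 FPKM in WT. Every INSL3-KO library was above every WT library. The log2 fold change was 2.31 ± 0.32 (edgeR, adjusted p = 6.8e-05), and 31.1% of all genes were called higher in this comparison, so that such a call was common. Islr2 was at 1.59, 1.27 and 1.29 FPKM in INSL3-KO against 1.15, 1.16 and 1.29 FPKM in WT, with overlap. On the TMM scale the groups did not overlap, at 5.54 to 6.56 CPM in INSL3-KO against 7.82 to 9.06 in WT. The Islr2 difference on that scale was −0.43 ± 0.14 (edgeR adjusted p = 0.0178, not called), and without composition scaling it was 0.21. Cbln4 had too few counts for a test.

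In INSL3-KI testis at P23, Islr2 was at 1.69, 1.43 and 5.38 FPKM and Hsd17b1 at 0.587, 0.401 and 1.92 FPKM. The 3rd library alone was high for both genes. Neither was called against WT (Islr2 0.55 ± 0.46, edgeR adjusted p = 0.348, and Hsd17b1 0.69 ± 0.60, adjusted p = 0.362), where 20.6% of all genes were called, and without INSL3-KI replicate 3 the values were −0.19 and −0.15. That library had a summed Sertoli list of 10176 CPM against 5337 and 4229 in the other INSL3-KI libraries, and a spermatocyte list of 3033 against 6186 and 6358. Against INSL3-KO, Hsd17b1 was −1.59 ± 0.55 (edgeR adjusted p = 0.0385) and Islr2 1.01 ± 0.46 (adjusted p = 0.0902) in INSL3-KI, neither called, where 38.2% of all genes were called. Without INSL3-KI replicate 3 Hsd17b1 was called, at −2.41 (adjusted p = 4.60e-04).

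At P40 both testis genes still detected were higher in INSL3-KI than in WT on the FPKM scale, but not when scaled to the Sertoli list. Islr2 was at 7.0, 7.45 and 7.07 FPKM in INSL3-KI against 3.08, 3.06 and 3.58 FPKM in WT, and Hsd17b1 at 1.48, 2.99 and 2.87 FPKM against 0.382, 0.680 and 0.454 FPKM. Neither gene's groups overlapped, and INSL3-KI replicate 1, which had the lowest Hsd17b1, had the highest spermatocyte sum of its group (3094 CPM against 546 and 491). Hsd17b1 rose by 1.61 ± 0.37 on the log2 scale (edgeR, adjusted p = 0.00795), where 25.6% of all genes were called higher. The call was lost without any 1 of WT replicates 1, 2 and 3 or INSL3-KI replicates 2 and 3 (adjusted p = 0.0316, 0.0117, 0.0301, 0.0275 and 0.0261), with log2 values of 1.45 to 1.90. Islr2 differed by 0.52 ± 0.11 (edgeR adjusted p = 0.00484), under the 2-fold limit, and by 1.13 without composition scaling. Fits over both ages found no difference between the INSL3-KI effects at P40 and at P23 that passed the test (0.89 ± 0.73 for Hsd17b1, edgeR adjusted p = 0.356, and −0.05 ± 0.51 for Islr2, adjusted p = 0.945).

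The Sertoli share of the RNA moved with these later differences, and its part in them was not tested. Clu alone made up 19.99% to 45.7% of the summed list in the testis libraries. The Sertoli list summed to 4173 to 4279 CPM in WT and 18507 to 18853 in INSL3-KO testis at P23, and to 3326 to 3703 in WT and 10311 to 14344 in INSL3-KI at P40, with 25 of 28 genes called higher in both comparisons. The spermatid list summed to 12982 to 15105 CPM in WT and 2.64 to 4.12 in INSL3-KO at P23, and to 7975 to 9989 in WT and 2.28 to 29.2 in INSL3-KI at P40. Scaled to the summed Sertoli list, the median of all genes was −2.14 at P23 (INSL3-KO) and −1.81 at P40. On that scale Hsd17b1 gave 0.12 ± 0.33 at P23 in INSL3-KO (edgeR adjusted p = 0.754) and −0.36 ± 0.30 at P40 (adjusted p = 0.319), and Islr2 gave −2.63 ± 0.13 (adjusted p = 1.58e-08) and −1.37 ± 0.19 (adjusted p = 8.91e-04). Relative to the median of all genes on that scale, Hsd17b1 was 2.26 and 1.45 higher, against 2.26 and 1.52 with TMM, and Islr2 was −0.48 and 0.43 on both, since this scaling moves every gene alike. Per 1000 counts of the Sertoli list, Hsd17b1 had 0.215 ± 0.0674 counts in WT against 0.233 ± 0.0700 in INSL3-KO at P23, and at P40 it had 0.309 ± 0.106 in WT against 0.240 ± 0.0327 in INSL3-KI. Islr2 had 1.97 ± 0.128 in WT against 0.319 ± 0.0257 in INSL3-KO at P23, and at P40 it had 5.65 ± 0.140 in WT against 2.18 ± 0.513 in INSL3-KI. At P8 the same ratio of Hsd17b1 was 8.66 ± 2.30 in WT against 0.577 (INSL3-KI) and 1.16 (INSL3-KO). That of Islr2 was 21.3 ± 2.95, 1.45 and 1.05. The P8 ratios are a description and no support for the fall, because the same libraries chose the genes.

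**Figure D3:**
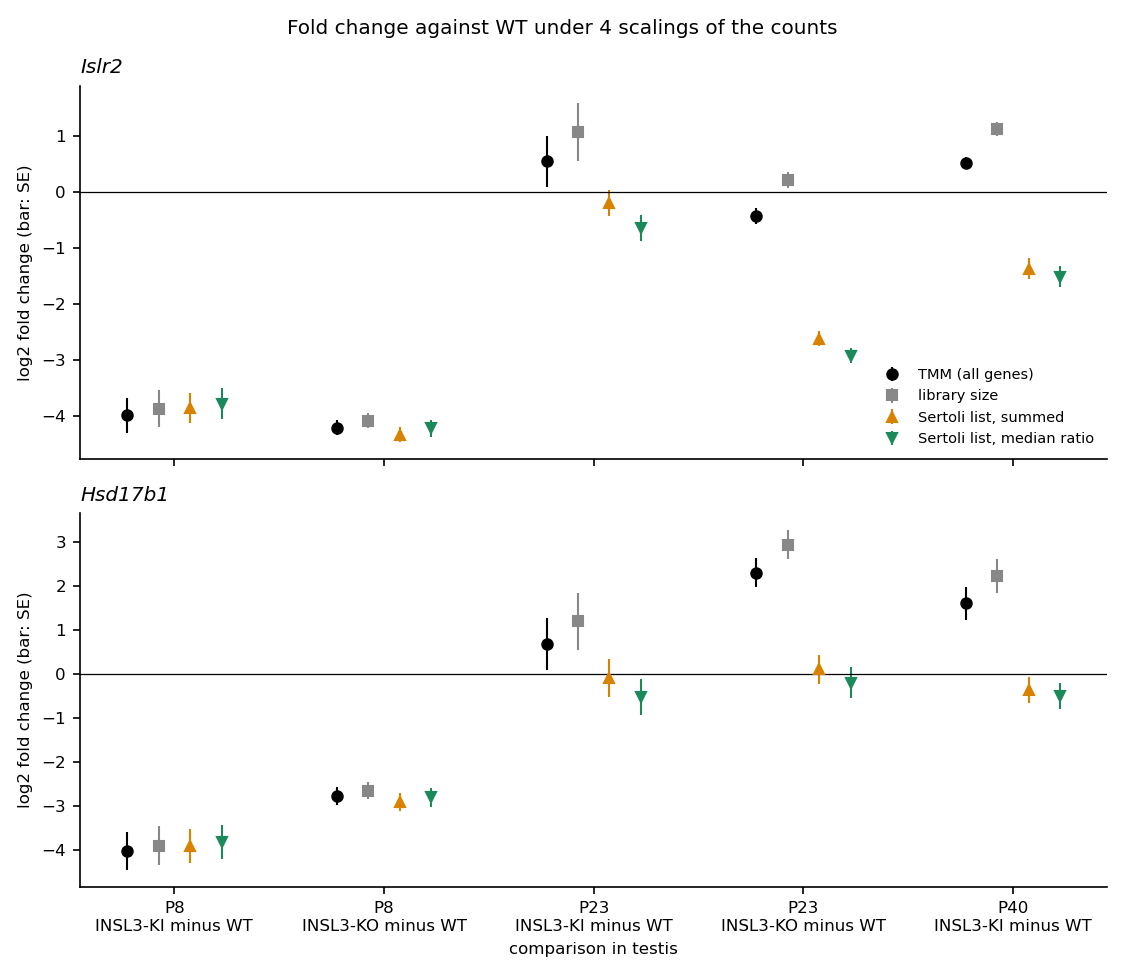
Log2 fold change against WT of Islr2 and Hsd17b1 in 5 testis comparisons under 4 scalings of the counts (TMM, library size, and the Sertoli list by its sum and by its median ratio), with bars for the standard error (n = 3 per group). The P8 values keep their sign under all 4, which is no support for them, since they chose the genes. Hsd17b1 at P23 in INSL3-KO goes from 2.31 with TMM to 0.12 on the Sertoli sum.

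In the gubernaculum Islr2 was the member with measurable levels, and it was lower in both mutants at P8. WT libraries were at 1.16, 2.13 and 2.15 FPKM, INSL3-KI at 0.441, 0.508 and 0.445 FPKM and INSL3-KO at 0.162, 0.368 and 0.352 FPKM. WT lay above both mutants in every library. Islr2 fell by 2.15 ± 0.31 (edgeR log2 scale, adjusted p = 6.31e-04) in INSL3-KI and by 2.60 ± 0.40 (adjusted p = 9.68e-04) in INSL3-KO, where 9.70% and 15.2% of all genes were called lower. Both calls were lost when all gubernaculum groups were fitted together (edgeR adjusted p = 0.0315 and 0.0120). The mutants differed by 0.41 ± 0.35 (edgeR adjusted p = 0.330), where 22.5% of all genes were called. Cbln4 had counts of 0 to 10 in every gubernaculum library and Hsd17b1 of 0 to 33. At P8, Hsd17b1 could be tested against WT in INSL3-KO only and was not called (0.96 ± 1.29, edgeR adjusted p = 0.536).

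Markers of other cell types moved in the same P8 gubernaculum libraries, in which 14.4% (INSL3-KI) and 15.5% (INSL3-KO) of all genes were called higher. Epididymis and efferent duct genes summed to 0.538 to 1.29 CPM in WT against 732 to 1743 (INSL3-KI) and 1023 to 1137 (INSL3-KO), with 3 of 4 and 4 of 5 tested genes called higher. Adipocyte genes were called higher in 4 of 4 in both, at 89.2 to 101 CPM in WT against 729 to 976 and 1821 to 2038. Smooth muscle genes were called higher in 4 of 5 and lower in 1 of 5 in both, at 3251 to 3722 CPM in WT against 14696 to 18703 and 6906 to 7327. The summed neuron list was 31.9 to 54.7 CPM in WT, 6.36 to 11.5 in INSL3-KI and 11.6 to 13.3 in INSL3-KO, and 3 of 4 and 2 of 5 tested genes were called lower, Stmn2, a growth cone protein, by 2.35 ± 0.27 (edgeR adjusted p = 1.76e-04) in INSL3-KI. Of that list, Snap25 was close to 0 in WT. Skeletal muscle genes were lower in 7 of 7 in both mutants, at 35219 to 36780 CPM in WT, 703 to 1269 in INSL3-KI and 6642 to 7165 in INSL3-KO. Schwann cell genes were lower in 0 of 4 in either mutant, with sums of 44.1 to 112, 62.1 to 65.6 and 82.5 to 88.1 CPM. Liver genes summed to 118 to 5679 CPM in the INSL3-KO libraries. The part of any of these cell types in the Islr2 difference was not tested.

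At P23 Islr2 in gubernaculum was 0.534, 0.639 and 0.947 FPKM in WT and 0.0702, 1.08 and 0.264 FPKM in INSL3-KI. The groups overlapped, because INSL3-KI replicate 2 was above all WT libraries. That library also stood apart in smooth muscle genes (1770 CPM against 13541 and 12347 in the other INSL3-KI libraries) and skeletal muscle genes (14.2 against 934 and 628). Adipocyte genes differed among all the INSL3-KI libraries, at 6051, 14027 and 461 CPM. In WT the skeletal muscle list summed to 50392 to 86246 CPM and the adipocyte list to 115 to 151. The part of these cell types in the Islr2 values was not tested. Islr2 gave −0.79 ± 0.94 (edgeR adjusted p = 0.581) and Hsd17b1 0.27 ± 0.59 (adjusted p = 0.774), where 2.57% of all genes were called. The INSL3-KI effect on Islr2 at P23 minus that at P8 was 1.33 ± 1.03 (edgeR adjusted p = 0.450). In WT gubernaculum Islr2 was −1.13 ± 0.33 at P23 relative to P8 (edgeR adjusted p = 0.0315, not called), where 10.5% of all genes were called, and in INSL3-KI it was 0.28 ± 0.94 (adjusted p = 0.897), a comparison in which edgeR called 0 genes, 3069 had an unadjusted p under 0.05 and DESeq2 called 606.

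The families and partners of the members were examined in P8 testis. Among the other cerebellins and their receptors, 9 of 10 were tested, and Cbln1 was the 1 gene called, lower in both mutants. Cbln1, which links neurexins to a delta glutamate receptor, was at 17.6, 33.9 and 28.5 FPKM in WT, 3.27, 1.78 and 2.67 in INSL3-KI and 4.10, 4.51 and 3.84 in INSL3-KO, with no overlap of WT and mutants. It fell by 3.48 ± 0.33 (edgeR, adjusted p = 0.00347) and by 3.02 ± 0.25 (adjusted p = 9.00e-05). The most abundant gene of this list, Neo1, a netrin and repulsive guidance receptor, was at 70.8 ± 4.16 FPKM in WT and gave −0.53 ± 0.09 and −0.90 ± 0.06, under the 2-fold limit. The list medians were −0.53 and −0.85, against 0.00 and −0.02 for all genes tested.

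Of the 13 genes for the Islr paralog and the neurotrophin and GDNF receptors and ligands, 4 of 12 tested were called lower in INSL3-KI and 8 of 11 in INSL3-KO, and 0 higher (medians −1.17 and −1.33). Ngfr, the low-affinity neurotrophin receptor, fell by 3.22 ± 0.55 (edgeR, adjusted p = 0.00827) in INSL3-KI and by 2.68 ± 0.27 (adjusted p = 2.02e-04) in INSL3-KO. Gdnf, the Sertoli cell factor that maintains spermatogonial stem cells, fell by 1.27 ± 0.21 and 1.48 ± 0.14, and Ntrk2, the BDNF receptor, by 1.25 ± 0.15 and 1.45 ± 0.13. Ret, the GDNF co-receptor of spermatogonia, was called in INSL3-KO (−1.79 ± 0.12) and gave −0.95 ± 0.18 in INSL3-KI (edgeR adjusted p = 0.0101). Ntrk3 was likewise called in INSL3-KO only (−3.51 ± 0.52) and gave −1.59 ± 0.48 in INSL3-KI. Between the mutants, INSL3-KI relative to INSL3-KO, Ret gave 0.82 ± 0.17 (edgeR adjusted p = 0.0125) and Ntrk3 was higher by 1.89 ± 0.36 (adjusted p = 0.00918). The INSL3-KI and INSL3-KO comparisons share their WT libraries. Islr, the paralog whose gene model overlaps Islr2, was at 90.6, 118 and 138 FPKM in WT, 44.7, 25.1 and 49.3 in INSL3-KI and 50.1, 51.4 and 52.2 in INSL3-KO. It fell by 1.63 ± 0.27 (edgeR, adjusted p = 0.00764) and 1.22 ± 0.15 (adjusted p = 5.07e-04) in P8 testis, and at P23 it was 2.54 ± 0.10 higher in INSL3-KO than in WT (adjusted p = 3.19e-09).

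Of the Hsd17b family, 6 of 11 were tested at P8 and Hsd17b3 was the 1 gene called. Hsd17b3, which makes testosterone in adult Leydig cells and, in the fetal mouse testis, in Sertoli cells, was at 79.6, 103 and 79.7 FPKM in WT, 14.3, 6.68 and 10.4 in INSL3-KI and 18.6, 20.1 and 20.2 in INSL3-KO. It fell by 3.18 ± 0.27 (edgeR, adjusted p = 0.00308) and 2.06 ± 0.12 (adjusted p = 2.68e-05), and the list medians were −0.28 and −0.05. Of 12 tested genes of oestrogen and androgen synthesis and their receptors, INSL3-KI had 4 lower and 1 higher (median −0.74), whereas INSL3-KO had 1 in each direction (median −0.40). Cyp17a1, which makes the androgen precursors, was −2.95 ± 0.48 in INSL3-KI (edgeR adjusted p = 0.00735) and −0.13 ± 0.09 in INSL3-KO (adjusted p = 0.283). Between the mutants it was −2.84 ± 0.47 in INSL3-KI relative to INSL3-KO (edgeR adjusted p = 0.00531). Star, which brings cholesterol into mitochondria, was −1.65 ± 0.23 (edgeR adjusted p = 0.00531) and −0.80 ± 0.19. The gene called higher in both mutants was Hsd3b6, a steroid dehydrogenase of adult Leydig cells, with a mean of 0.0483 CPM in WT against 13.5 (INSL3-KI) and 2.81 (INSL3-KO). The other genes called lower in INSL3-KI were Cyp11a1, the first enzyme of steroid synthesis, and Hsd17b3, which was the gene called lower in INSL3-KO. The INSL3-KI calls of these lists come from the comparison whose number of calls depended on which library was left out, as given above.

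**Figure D4:**
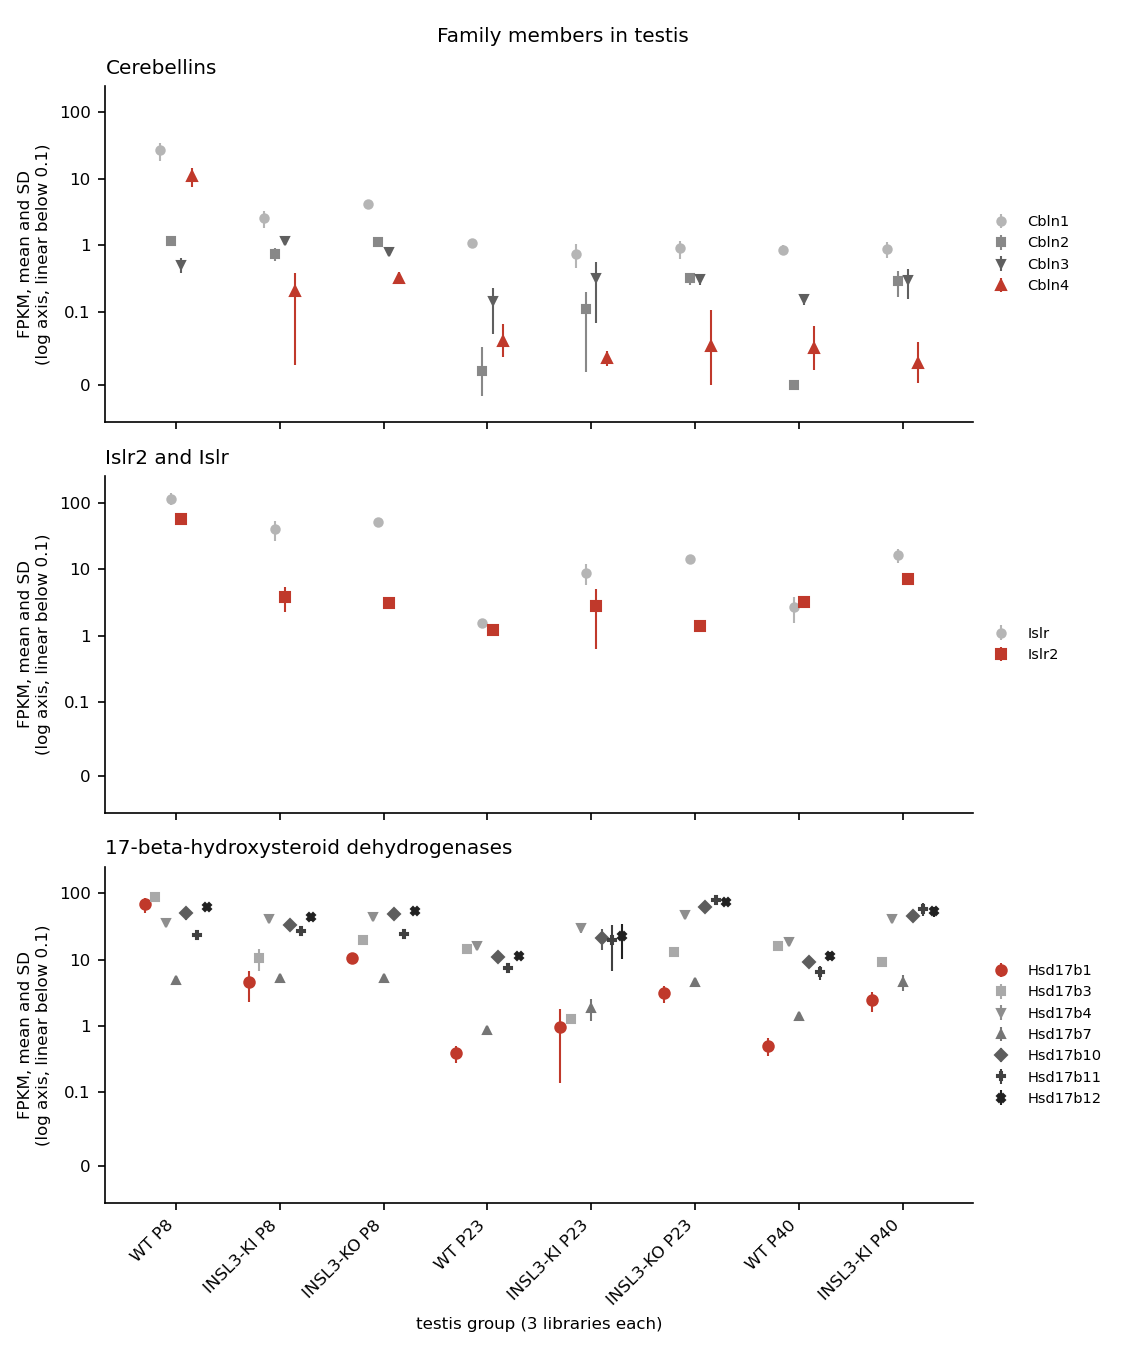
Mean level in FPKM (log axis, linear below 0.1) with the SD of 3 libraries in the 8 testis groups, for the cerebellins, for Islr and Islr2 and for 7 hydroxysteroid dehydrogenases, with the members in red. Cbln1, Islr and Hsd17b3 stand at 26.7, 115 and 87.4 FPKM in WT P8 testis, above both mutants of that age.

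Over the 24 testis libraries, the genes most like each member were ranked by Pearson's r of log2 CPM among 14507 genes with a mean of at least 1 CPM. This is a description, since the libraries share genotype, age and depth and the WT P8 libraries that chose the members weigh in it. For Cbln4 they were Il17rd (0.941), Cbln1 (0.941), Adcy2 (0.941), Eef1a1 (0.935) and Gmpr (0.930). For Islr2 they were Sema4c (0.935), Plxnb1 (0.928), Mbp (0.895), Gpr153 (0.892) and Jund (0.878). For Hsd17b1 they were Plagl1 (0.974), Tmpo (0.972), Npr3 (0.972), Pls3 (0.971) and Lhfpl2 (0.970). Plagl1, an imprinted zinc finger factor of fetal tissues, had group means of 300.5 CPM in WT P8 testis, 47.3 in INSL3-KI P8, 74.1 in INSL3-KO P8 and 8.88 in WT P23. Among themselves the members had r of 0.775 (Cbln4 and Islr2), 0.823 (Cbln4 and Hsd17b1) and 0.708 (Islr2 and Hsd17b1). Their ranks for each other ran from 93 (Cbln4 for Islr2) to 2857 (Islr2 for Hsd17b1) among the 14507 genes.

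**Figure D5:**
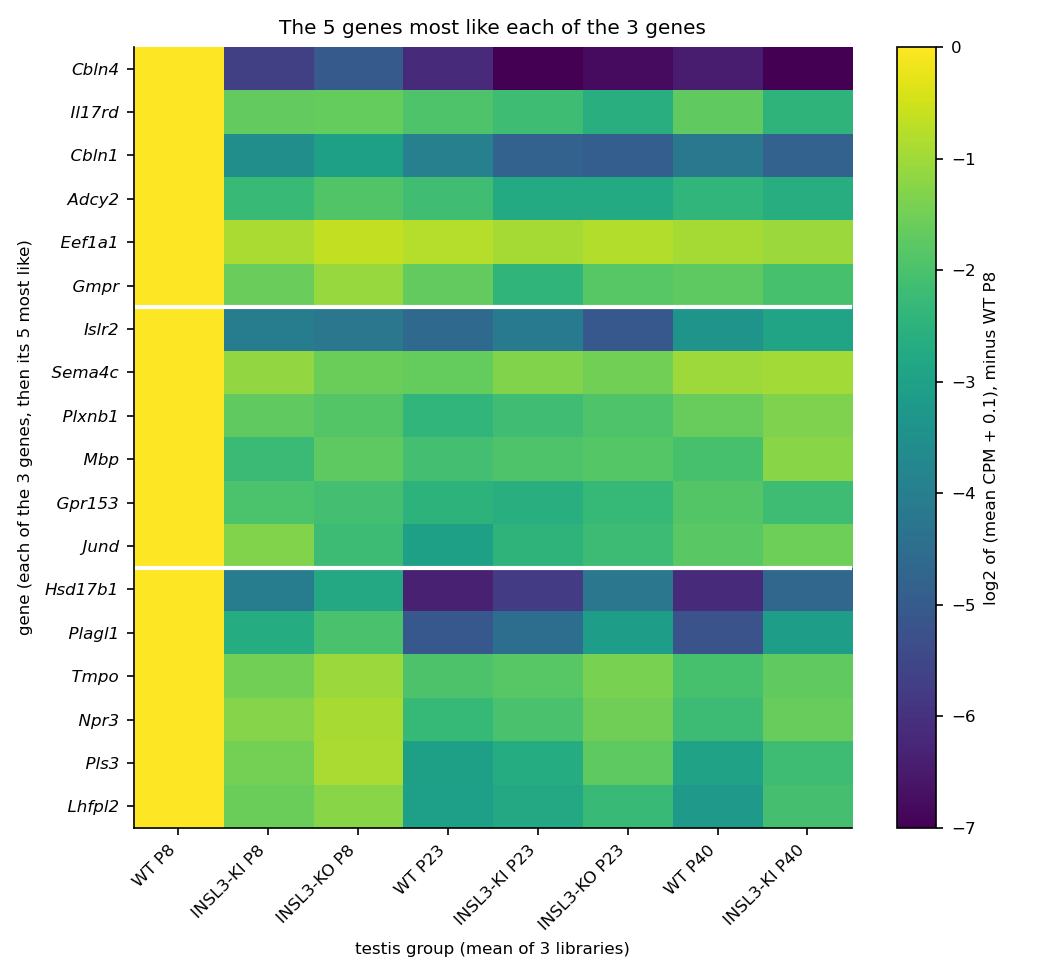
Colour shows log2 of the mean CPM plus 0.1 minus its value in WT P8 testis, for each member and the 5 genes most like it (rows) in the 8 testis groups (columns). WT P8 is at 0 by construction, and the closest genes have r of 0.941 (Cbln4), 0.935 (Islr2) and 0.974 (Hsd17b1).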

How the data were processed

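The authors aligned reads to GRCm38 with HISAT2 (per the labels) and deposited 2 tables with raw counts and FPKM per library and gene. No columns of the authors' own comparisons were used. The tables were joined on Ensembl identifier, and 0 columns were left without a sample. Counts were tested with edgeR 4.0.16 (R 4.3.3), the quasi-likelihood test with TMM scaling, Benjamini-Hochberg adjustment over all genes tested and filterByExpr (minimum count 10, minimum total 15), on the 3 + 3 libraries of each comparison, and calls needed a change of at least 2-fold with adjusted p below 0.01. CPM are TMM-scaled within a tissue, and FPKM as deposited served for levels between genes. DESeq2 1.42.0, limma 3.58.1 on log2(FPKM + 0.1), library size scaling, no filter, 1 fit over all groups of a tissue, a replicate block, Sertoli list scaling and leaving out each library were alternatives. Scaling on the median ratio over the Sertoli list was chosen after seeing the data. The members and lists were chosen with earlier results of these data known. Genes named are the members, Insl3, the most abundant, family and called genes with the largest changes of each of 19 lists, and the 5 genes most like each member. The scripts were tested on simulated data. No pair of libraries of a group agreed within sampling noise. P-values measure the spread between 3 libraries. That spread was unequal between groups. For pairs of INSL3-KO P8 testis libraries the Poisson chi-square per degree of freedom was 7.33 to 9.14, against 13.5 to 126 in INSL3-KI. Numbers of calls depend on this spread, so those of the mutants cannot be compared directly.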

Additional observations from a re-analysis of the deposited data

Results flagged for a closer look

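Some log2 fold changes had opposite signs, with every library of the mutant on one side of WT in each comparison, and these differences between comparisons were not tested. The members' P8 testis values are a description, since they chose the genes. Islr2 in INSL3-KI against WT was −4.00 in P8 testis, 0.52 in P40 testis and −2.15 in P8 gubernaculum. Hsd17b1 in INSL3-KI against WT was −4.01 in P8 testis and 1.61 in P40 testis. Hsd17b1 in INSL3-KO against WT was −2.77 in P8 testis and 2.31 in P23 testis. Scaling on the summed Sertoli list, which moved the median of all genes to −1.81 at P40 and −2.14 at P23 in INSL3-KO, gave −1.37 for Islr2 and −0.36 for Hsd17b1 at P40 and 0.12 for Hsd17b1 at P23. Relative to that median they were 0.43, 1.45 and 2.26.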

How the results depend on the processing

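Of the members' tested values, 133 kept their sign and side of the threshold under alternatives that kept all libraries, 13 reversed, 11 became calls and 5 lost the call. With each library left out, 125 kept both, 5 reversed, 1 became a call and 5 lost it. The P8 testis values were described without a test. They kept their sign and moved by less than the larger SD of the 2 groups in 72 values under the former and 54 under the latter. This is no support for them, since the same values chose the genes. The Sertoli scalings move every gene alike, so a changed sign or call there follows the shift of all genes (median −1.81 and −1.95 at P40, and −2.14 and −2.44 at P23 in INSL3-KO). At P23, INSL3-KI against WT, the Sertoli sum and median ratio gave −0.20 and −0.64 for Islr2 and −0.085 and −0.51 for Hsd17b1, and libraries left out in turn gave −0.19 to 0.83 and −0.15 to 1.00. At P23, INSL3-KO against WT, Islr2 was 0.21 by library size and 0.18 by limma, and −2.63 and −2.93 on the Sertoli scales (calls), where Hsd17b1 lost the call (0.12 and −0.19). Against INSL3-KO, Islr2 in INSL3-KI was called in 1 fit of all testis groups (1.01) and on the Sertoli scales (2.43 and 2.28), and Hsd17b1 with DESeq2 (−1.59) and in 1 fit (−1.59), with −2.41 to −1.25 over libraries left out (called without INSL3-KI replicate 3). At P40 Islr2 was called by library size and limma (1.13 each) and was −1.37 and −1.52 on the Sertoli scales (0.43 above the median of all genes on both), and Hsd17b1 was −0.36 and −0.49 there and 1.45 to 1.90 over libraries left out. In 1 fit over a tissue Islr2 lost its calls in P8 gubernaculum (−2.19 in INSL3-KI and −2.60 in INSL3-KO, edgeR adjusted p = 0.0315 and 0.0120) and in WT testis with age (1.23) and gained one in INSL3-KI testis with age (1.17). DESeq2 called Islr2 in WT gubernaculum with age (−1.13). Islr2 in INSL3-KI gubernaculum with age was −0.43 by limma, and −1.33 to 0.79 over libraries left out (−1.33 without P23 INSL3-KI replicate 2). Hsd17b1 ranged from −0.0908 to 0.57 in P23 gubernaculum (negative without WT replicate 2) and from −0.0112 to 0.50 in WT testis with age (negative without P40 WT replicate 2). The cause of the other changes was not tested.

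Replicate numbers were not treated as pairs, since in 0 of 15 comparisons did every same-numbered pair correlate above 0.1 (correlations of −0.60 to 0.68). This does not exclude a pairing, because 1 discordant library is enough to fail the rule. With the number as a replicate block, Hsd17b1 at P40 was 1.60 (edgeR adjusted p = 0.0101), Islr2 in INSL3-KI gubernaculum with age was −0.52, and genes called went to 6 in P8 testis INSL3-KI against WT, 318 in INSL3-KI against INSL3-KO, 1598 in P23 testis INSL3-KI against WT, 0 in P23 gubernaculum (4392 at an unadjusted p under 0.05 in edgeR) and 540 in WT gubernaculum with age.

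Genes called moved by over 1.5 times as follows. P8 testis, INSL3-KI against WT, gave 987, 2140 with DESeq2, 2161 in 1 fit and 0 to 931 without 1 library. INSL3-KI against INSL3-KO at P8 gave 617, 984 on the Sertoli sum and 296 to 749. P23 testis, INSL3-KI against WT, gave 3428, 5325 with limma, 324 and 1549 on the Sertoli scales and 372 to 4073, and INSL3-KI against INSL3-KO 6262, 9470 on the Sertoli sum and 3658 to 8501. P8 gubernaculum, INSL3-KI against INSL3-KO, gave 3515 and 2316 in 1 fit. P23 gubernaculum gave 387, 2221 with DESeq2, 649 with limma, 2480 in 1 fit and 19 to 638. WT testis with age gave 763, 485 in 1 fit and 1169 on the Sertoli sum, and WT gubernaculum 1571, 2575 with DESeq2 and 289 to 1369. INSL3-KI testis with age gave 0, 1145 with DESeq2 and 3334 in 1 fit, and INSL3-KI gubernaculum 0, 606, 267 and 0 to 1.

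The share of called genes that were lower ran, over other scalings, from 23.3% to 52.7% (51.8% with TMM) in P8 testis INSL3-KI, from 44.7% to 72.2% (60.6%) in INSL3-KO and from 7.11% to 43.4% (29.7%) between the mutants. At P23 it ran from 28.7% to 91.3% (57.4%) in INSL3-KI, from 38.7% to 99.1% (51.8%) in INSL3-KO and from 0.887% to 43.4% (34.0%) between them, and at P40 from 27.2% to 99.6% (46.4%). In P8 gubernaculum it ran from 26.1% to 41.6% (40.2%) in INSL3-KI, from 37.2% to 48.6% (49.5%) in INSL3-KO and from 32.9% to 49.1% (46.9%) between them. It ran from 62.5% to 80.6% (91.7%) in P23 gubernaculum and from 10.9% to 46.2% (35.4%) in WT testis with age.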

Other observations

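Cyp19a1, the aromatase gene of oestradiol synthesis, was lower in INSL3-KO testis at P23 and in INSL3-KI testis at P40. Such calls were common, with 5584 of 16732 genes tested called lower at P23 and 3690 of 16677 at P40. The part of germ cell content in them was not tested. Cyp19a1 had means of 7.45 CPM in WT and 0.124 in INSL3-KO testis at P23 (log2 fold change −5.82 ± 0.52, edgeR adjusted p = 2.15e-06), and of 5.43 in WT and 0.412 in INSL3-KI at P40 (−3.69 ± 0.62, adjusted p = 0.00235). Neo1, a receptor related to those of the cerebellins, was higher in INSL3-KO at P23 (1.70 ± 0.05, edgeR adjusted p = 2.02e-10) and in INSL3-KI at P40 (1.72 ± 0.18, adjusted p = 4.66e-04), both on the TMM scale. The Sertoli scaling moves every gene alike, with the median of all genes at −2.14 and −1.81. The part of cell composition in the Neo1 values was not tested. In P8 gubernaculum, Ntrk2, the BDNF receptor, was lower in INSL3-KI (−1.86 ± 0.14, edgeR adjusted p = 1.7e-05) and INSL3-KO (−1.55 ± 0.09, adjusted p = 9.14e-06).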
